A study of Mus musculus with 12 samples.

Results

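Broad H3K79me2 domains were defined as stretches of 10 kb or more that carried this histone mark in cultures of mouse embryonic fibroblasts at day 4 of reprogramming. The peaks of 4 H3K79me2 libraries on the 19 autosomes were pooled, peaks within 1 kb of each other were merged, and merged domains of 10 kb or wider were kept, so the members were chosen by measured H3K79me2 peak positions. This gave 2702 broad domains among 150052 merged domains of any width (1.80%). They spanned 53.5 Mb, or 38.6% of the merged length of 138.8 Mb and 2.17% of the 2472 Mb of autosome up to the last peaks. Since the H3K79me2 peaks chose the members, H3K79me2 values in them are given as a description without a test, and tests were made only on H3K79me1, which the choice did not use.

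Methyl groups on lysine 79 of histone H3 are placed by DOT1L, the only known enzyme of mammals for this residue, which acts on nucleosomes and adds the groups one at a time. H3K79me2 is known as a mark of transcribed genes that is strongest over the early part of the gene body, and H3K79me1 usually extends further along it. AF10, also named Mllt10, binds DOT1L and promotes the higher methylation states.

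The cells with deleted AF10 carried the genotype AF10 -/-, OSKM, rtTA and had received the adenovirus Ad5-CMV-Cre, in which the CMV promoter drives Cre recombinase. The controls carried AF10 fl/fl, OSKM, rtTA and had received Ad5-CMV-Empty. Both groups received doxycycline at 2 µg/mL from 2 days after the virus, which switches on the reprogramming factors through rtTA, and both grew on DR4 feeder fibroblasts, which may also be in each library. Each mark had 2 Cre and 2 control libraries (8 lists of peaks), and no label says whether replicates were separate cultures, so a p-value here measures the spread between these samples, which may be technical. The lists give peaks and no AF10 transcript, so the deletion could not be checked in them.

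The lists differed widely in what was called, and this bears on every value of cover, which is the share of bases inside peaks. On the autosomes, H3K79me1 peaks covered 59.5 and 1.85 Mb in Cre replicates 1 and 2, against 117.8 and 53.4 Mb in control replicates 1 and 2. H3K79me2 peaks covered 47.5 and 49.2 Mb in the Cre libraries and 15.7 and 69.9 Mb in the controls. H3K79me1 Cre replicate 2 and H3K79me2 control replicate 1 therefore stand apart from the other libraries of their mark. Read depth is not given by the lists, so no counting interval could be computed, and the number of libraries limits the precision.

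The broad domains had a median width of 15.7 kb, with quartiles at 12.2 and 22.8 kb. Of the 2702, 880 were 20 kb or wider and 93 were 50 kb or wider. The widest spanned 109253 bp. The narrowest members lay on chr9:95403368-95413367 (10000 bp), chr1:4847929-4857929 (10001 bp) and chr13:94073068-94083074 (10007 bp), in mm9. The domains next below the limit lay on chr8:81028311-81038305 (9995 bp), chr17:47137457-47147439 (9983 bp) and chr5:145844771-145854749 (9979 bp). H3K79me2 control replicate 2 covered 80.6%, 63.6% and 29.3% of those 3 members and 58.4%, 73.3% and 50.2% of those 3 domains below the limit, so these values overlapped across the limit.

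Broad domains were found on every autosome. Their density ran from 0.743 per Mb on chromosome 14 to its highest on chromosome 11, where 207 domains took up 3.38% of the length. Chromosome 19 was second in density, with 1.55 per Mb. Neighbouring broad domains on a chromosome were separated by a median of 230.2 kb. Of 2683 neighbouring pairs, 398 (14.8%) lay within 10 kb of each other, so the surroundings of many domains held other H3K79me2.

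All 4 H3K79me2 lists had at least 1 peak in 2690 of the 2702 broad domains (99.6%), against 63.6% of the 10346 merged domains of 2 to 10 kb. A wider domain has more room for a peak, and its choice required dense peaks, so this gap is a description of the rule. H3K79me2 covered 53.7% and 47.5% of the pooled length of the broad domains in Cre replicates 1 and 2, against 17.1% and 58.7% in control replicates 1 and 2. The group means were 50.6 ± 4.39% after Cre and 37.9 ± 29.5% in control (SD, n = 2), with the Cre pair inside the range of the controls. Domain by domain, Cre replicate 1 was the highest list in 744 of 2702 (27.5%), and control replicate 2 in 1852 (68.5%). Control replicate 1 was the lowest in 2700. Control replicate 2 also had the longest H3K79me2 list (69.9 Mb) and control replicate 1 the shortest (15.7 Mb). These ranks were not counted over all merged domains, so they are not shown to be particular to broad ones. Both Cre libraries exceeded both controls in 267 domains (9.88%) and lay below both in 2 (0.0740%), while over all merged domains of 2 kb or wider, which the same lists define, these shares were 14.6% and 1.39%.

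**Figure D1:**
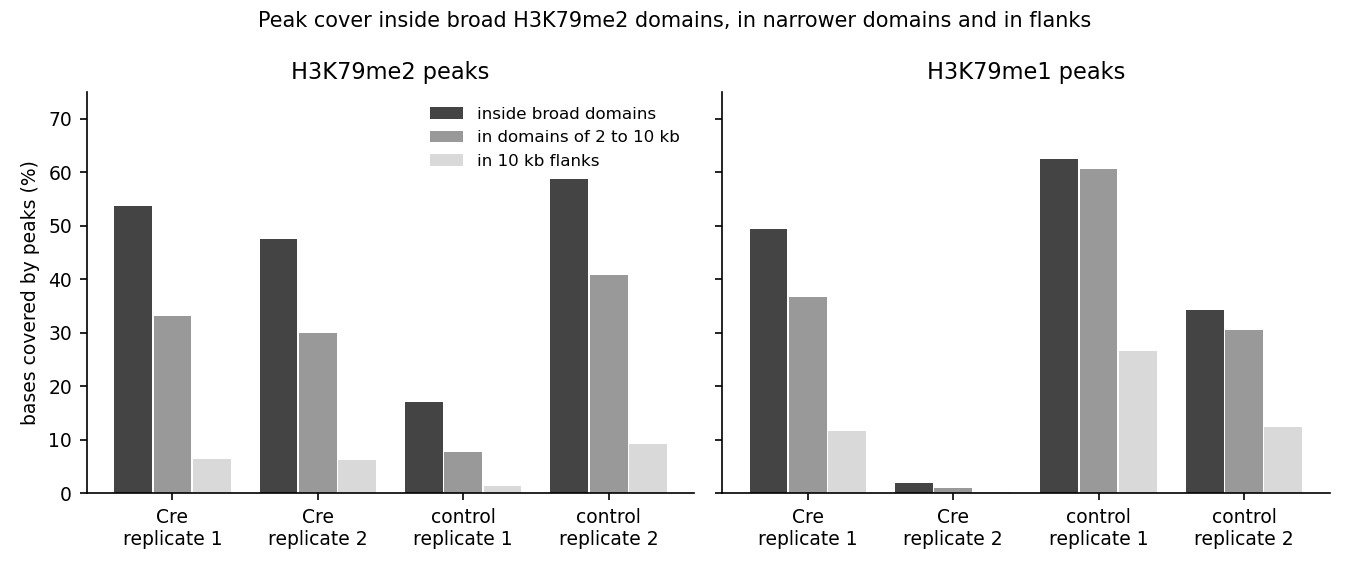
Bars show the percent of bases covered by peaks (vertical axis, from 0) in each library, pooled over the 2702 broad domains, over 10346 domains of 2 to 10 kb, and over the 10 kb flanks of the broad domains. Inside broad domains the 4 H3K79me1 libraries stand at 49.4% and 1.99% (Cre) and 62.5% and 34.2% (control), and each is higher there than in its flanks.

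The lists agreed on only part of each domain. Of the broad-domain length, 11.4% lay under peaks of all 4 H3K79me2 lists, 22.6% under 3, 20.4% under 2 and 22.9% under a single list, and 22.7% was gap, covered by none. In domains of 2 to 10 kb, 3.77% lay under all 4 lists and 37.8% was gap. A library's own peaks joined into far fewer broad domains. Merged within 1 kb, Cre replicates 1 and 2 alone gave 1166 and 995 domains of 10 kb or more, and control replicates 1 and 2 alone gave 202 and 1683. The 2 Cre lists together gave 1783 and the 2 control lists together 1845, and these reached 61.4% and 64.1% of the 2702.

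Gaps were many and short. The 2702 domains held 34990 gaps, a median of 12 per domain and 6.54 per 10 kb, with a median length of 284 bp and quartiles of 192 and 472 bp. The rule sets an upper bound of 1000 bp, and 912 gaps (2.61%) were 900 bp or longer. Such a near-limit gap was present in 743 domains (27.5%), which a slightly smaller merging distance would split. Only 3 domains had no gap, with widths of 10.9 to 16.1 kb. Gaps were spread along the domains, with 51.2% of their midpoints nearer to an edge than to the centre, but not evenly. With each domain cut into 20 equal parts, at least 1 H3K79me2 list covered 75.3% of the outermost part on average. It was 70.5% in the second part and 76.5% in the part next to the centre. By the rule, the very ends of a domain lie under a peak.

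The edges of the broad domains were set mostly by the longer lists. Of 5404 edges, H3K79me2 Cre replicates 1 and 2 had a peak end on 26.6% and 25.3%, against 5.76% and 42.9% for control replicates 1 and 2. The first peak of a list lay a median of 172 and 182 bp inside the edge in Cre replicates 1 and 2, against 1110 and 39 bp in control replicates 1 and 2. Mean cover was lowest at the ends in all 4 lists. In the outermost 20th part at either end it was 45.1% and 41.0% in the Cre libraries and 12.0% and 50.0% in the controls, against 52.2% and 45.8% (Cre) and 15.8% and 58.4% (control) in the 20th part next to the centre.

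Single peaks were also wider inside broad domains. The median peak inside measured 481 and 392 bp in H3K79me2 Cre replicates 1 and 2, and 182 and 432 bp in control replicates 1 and 2. Outside, the medians were 290 and 197 bp (Cre) and 61 and 175 bp (control). The authors' fold enrichment hardly separated inside from outside peaks. Its median inside was 1.91 and 1.87 in the Cre libraries and 2.29 and 1.91 in the controls, and outside it was 1.78 and 1.79 (Cre) and 2.42 and 1.81 (control). Of the 3818 and 2549 H3K79me2 peaks of 2 kb or wider in Cre replicates 1 and 2, 76.4% and 78.6% lay in broad domains, as did 91.5% and 79.3% of the 118 and 3845 such peaks in the controls. Of H3K79me2 peaks of any width, 44.9% and 32.3% (Cre) and 38.2% and 21.9% (control) lay there. A wide peak helps a merged domain reach 10 kb, so wider peaks inside are favoured by the rule.

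The 8 widest domains lay on chr8:111225272-111334524, chr2:52716609-52816971, chr15:61869187-61967876, chr1:191550709-191649308, chr17:47277428-47369344, chromosome 18 (88764 bp), chr4:130219389-130307927 and chr19:16206815-16294683, in mm9. H3K79me2 covered 80.1% and 75.4% of the widest, on chromosome 8, in Cre replicates 1 and 2, and 29.6% and 80.04% in control replicates 1 and 2. H3K79me1 covered 76.4% and 2.43% of it in the Cre libraries and 69.8% and 36.8% in the controls. The domain on chromosome 15 was the most completely called of these 8, with 96.3% of its 98690 bp under at least 1 H3K79me2 list and 39.5% to 88.5% in single lists. In that domain H3K79me1 covered 72.4% and 5.42% in the Cre libraries, against 55.6% and 33.3% in the controls. Around the domain on chromosome 4, H3K79me1 was nearly absent from the 10 kb flanks, at 0% in both Cre libraries and 0% and 1.37% in the controls, while inside it covered 55.9% and 2.55% (Cre) and 69.6% and 34.3% (control).

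Wider broad domains had a higher H3K79me2 cover in all 4 lists, which the merging rule favours, and a higher H3K79me1 cover mainly in the Cre libraries. H3K79me2 cover in domains of 10 to 12 kb and of 50 kb and over was 44.8% and 67.3% in Cre replicate 1 and 12.3% and 25.3% in control replicate 1. H3K79me1 in Cre replicate 1 covered 44.3% of the 629 domains of 10 to 12 kb and 59.3% of the 93 domains of 50 kb and over. In Cre replicate 2 the same classes had 1.32% and 2.75%. In control replicate 1 they had 62.9% and 62.2%. Control replicate 2 had 33.4% and 34.9%, so among broad domains H3K79me1 cover in the controls hardly moved with width.

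**Figure D2:**
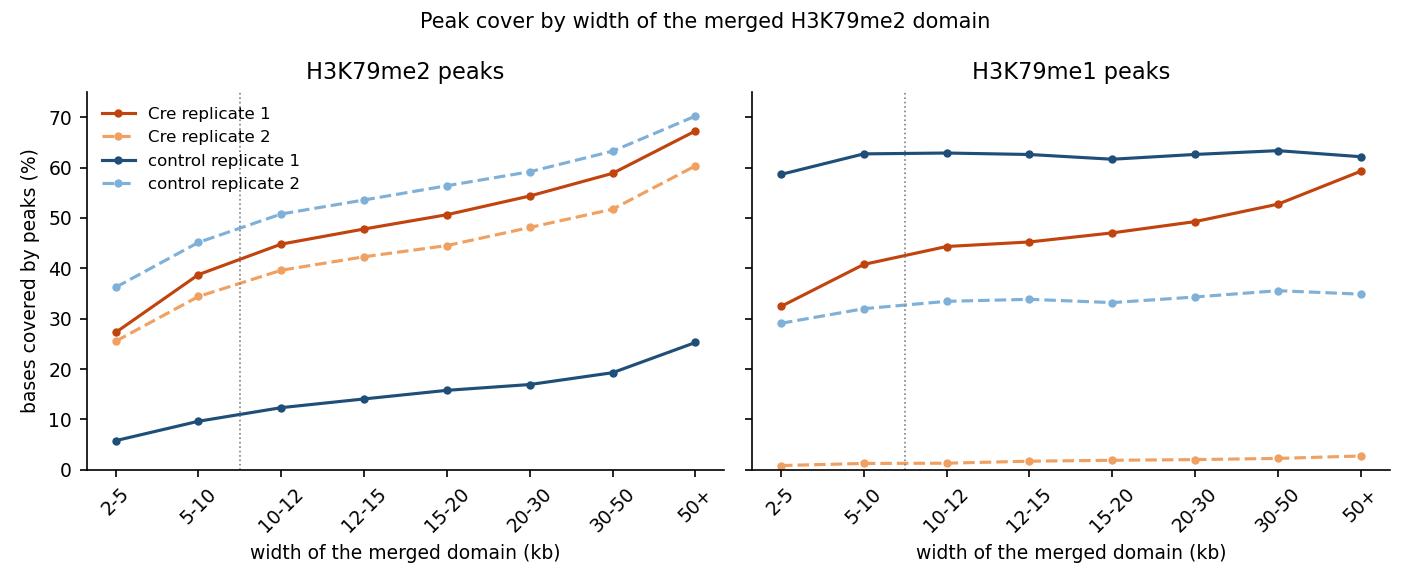
Lines show the percent of bases covered by peaks (vertical axis) in classes of merged-domain width in kb (horizontal axis), 1 line per library, with the 10 kb limit as a dotted line. H3K79me1 in Cre replicate 1 climbs to 59.3% in domains of 50 kb and over, while above 10 kb control replicates 1 and 2 stay near 62.2% and 34.9%. In domains of 2 to 5 kb these controls stand at 58.6% and 29.1%.

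H3K79me1 was also denser in broad domains than in domains of 2 to 10 kb, by 12.7 and 0.931 percentage points in Cre replicates 1 and 2 and by 1.85 and 3.66 in control replicates 1 and 2. The mean excess was 4.80 ± 5.42 percentage points (SD, n = 4 libraries), positive in 4 of 4, with an exact two-sided sign-flip permutation p of 0.125. That is the smallest p that 4 libraries allow, so no test over the 4 could pass 0.05. With domains built only from H3K79me2 peaks of −log10 p of at least 2, which left 324 broad domains, the difference was -4.67 percentage points, so its direction depended on how the domains were built. The mean stayed positive in 17 of 18 alternatives. It was 1.17 with merging within 500 bp, and 2.42 and 2.17 from the control or Cre lists alone. Their exact two-sided sign-flip permutation p was 0.75, 0.625 and 0.625, so in these the sign was not the same in all 4 libraries. Broad domains also held less gap (22.7% against 37.8%), and the part of this in the excess was not tested. Under equal numbers of H3K79me2 lists, control replicate 1 had less H3K79me1 in broad domains, from 48.1% against 48.9% (0 lists) to 57.2% against 61.1% (4 lists). Cre replicate 1 had more, from 20.1% against 18.4% to 74.8% against 73.8%. In Cre replicate 2 and control replicate 2 the direction varied with the number of lists.

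H3K79me1 stood well above its surroundings in the broad domains. It covered 49.4% and 1.99% of the domain length in Cre replicates 1 and 2, and 62.5% and 34.2% in control replicates 1 and 2. In the 10 kb on either side, leaving out bases of other broad domains, it covered 11.6% and 0.219% in the Cre libraries and 26.6% and 12.4% in the controls. Inside minus flank averaged 24.3 ± 16.6 percentage points (SD, n = 4) and was positive in 4 of 4 libraries (exact two-sided sign-flip permutation p = 0.125, the smallest possible). Domain by domain, cover inside was above that in the domain's own flanks in 97.2% and 73.7% of the 2702 in Cre replicates 1 and 2, and in 95.2% and 94.8% in control replicates 1 and 2. Among all 13048 merged domains of 2 kb or wider the shares were 85.4% and 31.8% (Cre) and 88% and 84.9% (control). In Cre replicate 2, 591 broad domains (21.9%) held no H3K79me1 peak at all, against 0 in Cre replicate 1. Among the controls, replicate 1 had 0 such domains and replicate 2 had 6. Of all 13048 domains, many of them narrower and with less room for a peak, 5.57% and 66.7% had none in Cre replicates 1 and 2, against 2.05% and 3.58% in the controls. In Cre replicate 1 and both controls together, H3K79me1 inside was above its flanks in 2437 broad domains (90.2%), against 71% of all 13048, and at or below them in 13 (0.481%), against 2.51%.

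The step in H3K79me1 fell at the H3K79me2 edge. In the outermost 1 kb inside, cover was 42.6% and 1.56% in the Cre libraries and 58.8% and 27.5% in the controls. In the first 1 kb outside it was 9.66% and 0.115% in the Cre libraries and 28.3% and 11.5% in the controls. The difference averaged 20.2 ± 14.6 percentage points (SD, n = 4), positive in 4 of 4 libraries (exact two-sided sign-flip permutation p = 0.125). The second 1 kb outside held more H3K79me1 than the first in all 4 libraries, at 13.5% and 0.259% after Cre and 32.2% and 14.9% in control. The first 1 kb is free of H3K79me2 peaks by the merging rule, and the next is not. H3K79me1 peaks nevertheless ran across the edge in part. A peak crossed 22.3% and 0.500% of the 5404 edges in the Cre libraries and 45.4% and 20.8% in the controls, and reached a median of 127 and 49 bp (Cre) and 273 and 145 bp (control) beyond it.

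**Figure D3:**
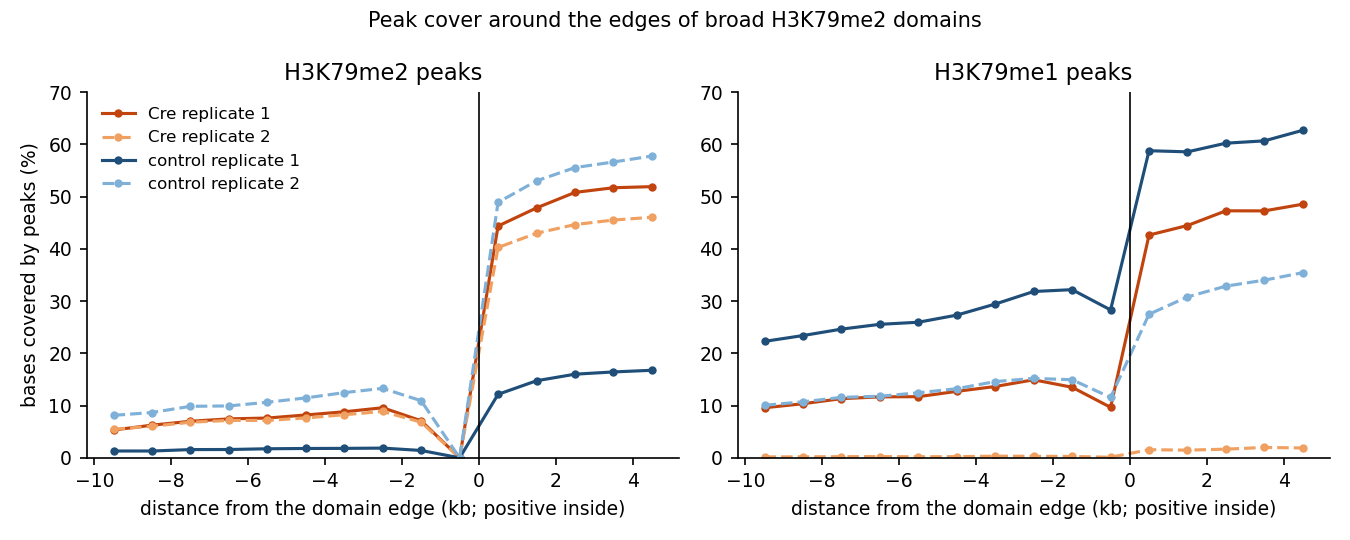
Lines show the percent of bases covered by peaks (vertical axis) in 1 kb steps from 10 kb outside to 5 kb inside the edges of the 2702 broad domains (horizontal axis), both edges pooled and other broad domains left out. H3K79me1 steps up at the edge in each library, to 42.6% and 1.56% (Cre) and 58.8% and 27.5% (control) in the first 1 kb inside.

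Inside the domains, H3K79me1 was denser under H3K79me2 peaks than in the gaps between them. Of the gap bases, where no H3K79me2 list had a peak, H3K79me1 covered 20.1% and 0.325% in Cre replicates 1 and 2 and 48.1% and 21.8% in control replicates 1 and 2. Of the called bases it covered 58.0% and 2.48% in the Cre libraries and 66.8% and 37.8% in the controls. Called minus gap averaged 18.7 ± 14.7 percentage points (SD, n = 4), positive in 4 of 4 libraries (exact two-sided sign-flip permutation p = 0.125). As a ratio, called bases had 2.88 and 7.64 times the cover of gap bases in the Cre libraries, against 1.39 and 1.73 times in the controls. These ratios did not overlap between the groups, and no test of their difference was run.

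A like pattern appeared when bases were ranked, in a comparison also added after the data were seen, by how many H3K79me2 lists called them. In Cre replicate 1, H3K79me1 covered 20.1%, 37.9%, 55.8%, 71.8% and 74.8% of the bases under 0, 1, 2, 3 and 4 H3K79me2 lists. In Cre replicate 2 the shares were 0.325%, 0.705%, 1.42%, 2.70% and 7.53%. In control replicate 1 they were 48.1%, 63.4%, 71.1%, 71.2% and 57.2%. Control replicate 2 had 21.8%, 31.5%, 38.1%, 41.0% and 43.9%. Thus the bases that all 4 H3K79me2 lists called had the highest H3K79me1 cover in 3 of the 4 libraries, and in control replicate 1 had less than bases under 1, 2 or 3 lists. Domains of 2 to 10 kb gave a like order, with 73.8% and 8.20% (Cre) and 61.1% and 44.7% (control) under all 4 lists, so this is not shown to be particular to broad domains.

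**Figure D4:**
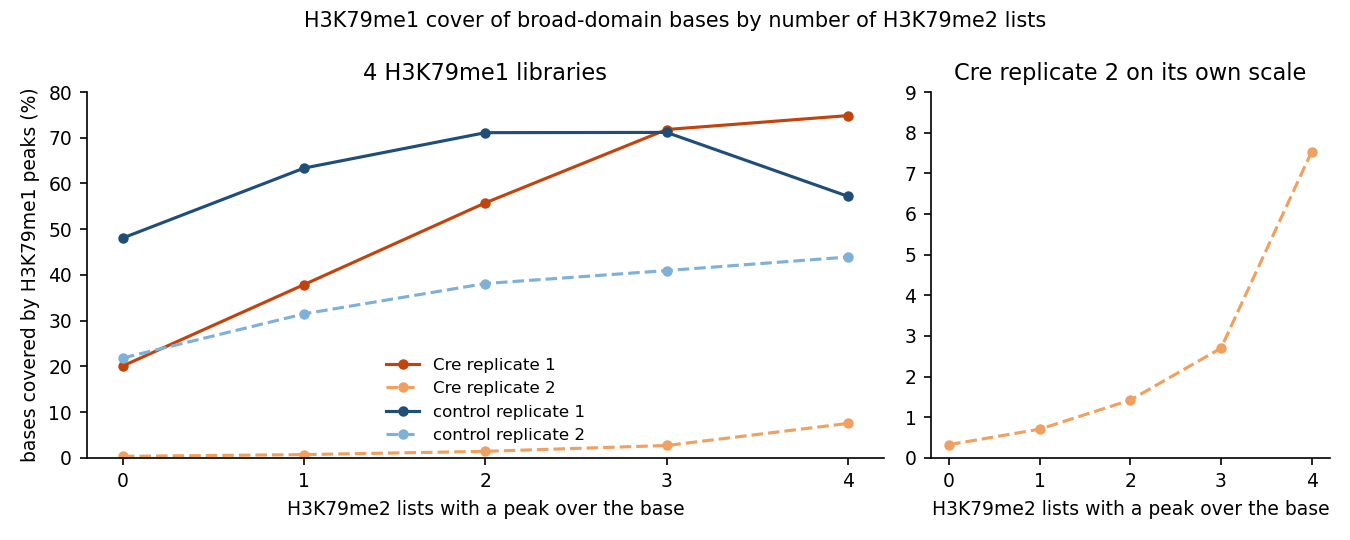
Points show the percent of broad-domain bases covered by H3K79me1 peaks (vertical axis) among bases under 0 to 4 H3K79me2 lists (horizontal axis), for the 4 H3K79me1 libraries and again for Cre replicate 2 on its own scale. Cre replicate 1 climbs to 74.8% under 4 lists, while control replicate 1 drops to 57.2% there.

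Over whole domains, H3K79me1 cover ran with H3K79me2 cover in the Cre H3K79me1 libraries, and less or inversely in the controls. Across the 2702 domains, H3K79me1 cover in Cre replicate 1 had a Spearman rho of 0.70 with H3K79me2 cover in Cre replicate 1 and 0.62 with that in Cre replicate 2. H3K79me1 cover in control replicate 1 had a rho of -0.35 with H3K79me2 in control replicate 1 and -0.23 with that in control replicate 2. The other control H3K79me1 library, replicate 2, had -0.02 and 0.03. H3K79me1 Cre replicate 2 had 0.45 and 0.48 with the 2 H3K79me2 Cre lists. Against the H3K79me2 control lists, H3K79me1 Cre replicate 1 had 0.31 and 0.39, and H3K79me1 Cre replicate 2 had 0.52 and 0.47. These are descriptions over domains that share their libraries and the domain width, and are given without a test.

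The H3K79me2 lists mostly leaned to the same side of a domain, and H3K79me1 in the controls mostly leaned to the other side. Each domain was split at its midpoint, and the side with more H3K79me2 in control replicate 1 was called its rich side, which could be told in 2688 of the 2702. This split was chosen after the data were seen, and H3K79me2 control replicate 1 leans to the rich side by definition. The other H3K79me2 lists mostly leaned the same way, with more cover on the rich side in 77.8% and 79.9% of domains in Cre replicates 1 and 2 and in 78.2% in control replicate 2. Over all 9942 merged domains of 2 kb or wider with a rich side, these shares were 62.1% and 66.2% (Cre) and 65.7% (control). The rich side held less in 22.1% and 20.1% of broad domains after Cre and 21.8% in control replicate 2, against 32.7%, 31.4% and 33.9% of the 9942.

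H3K79me1 had more cover on the H3K79me2-rich side in 61.6% of the 2688 domains in Cre replicate 1, against 54.6% of the 9942 domains of 2 kb or wider, and less in 38.4%, against 41.6%. In Cre replicate 2, 50.8% of the 2688 had more there and 27.5% less, with the rest equal, against 27.3% and 14% of the 9942. In control replicates 1 and 2 it was the poor side that mostly held more H3K79me1. The rich side had more in only 33.7% and 40.3% of the 2688 domains, against 42.4% and 48.7% of the 9942. It had less in 66.3% and 59.5%, against 54.9% and 48.9%. Mean H3K79me1 cover of the rich and poor sides was 49.8% and 44.9% in Cre replicate 1 and 2.29% and 1.32% in Cre replicate 2. It was 57.5% and 67.5% in control replicate 1. Control replicate 2 had 32.0% and 35.8%.

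In bases, the rich side held 52.4% and 62.8% of the H3K79me1 inside the domains in Cre replicates 1 and 2, against 45.5% and 46.8% in control replicates 1 and 2. The means were 57.6 ± 7.30% after Cre and 46.2 ± 0.881% in control (SD, n = 2), a difference of 11.4 percentage points. The groups did not overlap, and the exact two-sided permutation p was 0.333, the smallest that 2 against 2 can give. Without Cre replicate 2 the difference was 6.27 percentage points. Choosing the rich side by another H3K79me2 list, or by all 4 together, gave 10.3 to 11.7 percentage points. In domains of 2 to 10 kb the rich side held 52.6% and 67.1% (Cre) against 48.9% and 50.9% (control).

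**Figure D5:**
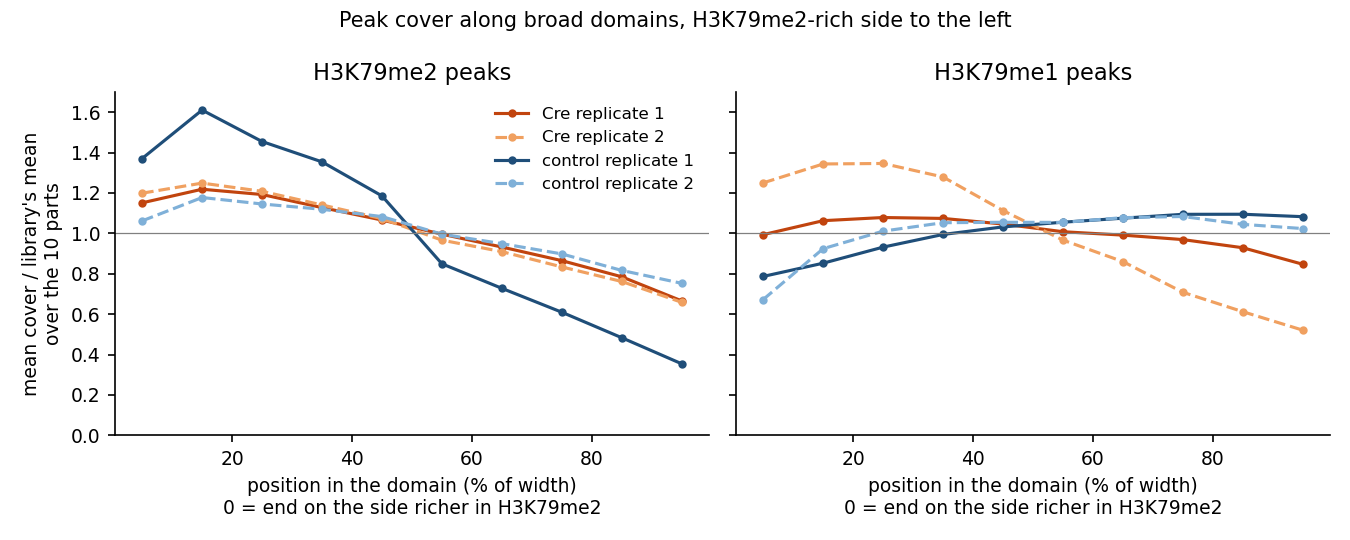
Lines show mean cover in 10 equal parts along 2688 broad domains, divided by the library's own mean over the parts (vertical axis), with the end on the H3K79me2-rich side at 0% of the width (horizontal axis). H3K79me2 control replicate 1 chose the rich side, so the direction of its own line is set by that choice. In percent of bases, H3K79me1 at the rich end and the poor end is 47.1% and 40.1% in Cre replicate 1 and 2.26% and 0.94% in Cre replicate 2, but 49.2% and 67.7% in control replicate 1. Control replicate 2 has 22.8% and 34.7%.

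Whether H3K79me1 in the broad domains differed between Cre and control depended on Cre replicate 2. Mean cover was 25.7 ± 33.5% after Cre and 48.4 ± 20.0% in control (SD, n = 2), a difference of -22.7 percentage points (exact two-sided permutation p = 0.667). Cre replicate 1 lay between the controls, and without Cre replicate 2 the difference was 1.00 percentage points in the other direction. In the flanks the groups did not overlap. Flank cover was 5.89 ± 8.02% after Cre and 19.5 ± 10.1% in control (SD, n = 2), with both Cre values, 11.6% and 0.219%, below both controls, 26.6% and 12.4% (difference -13.6 percentage points, exact two-sided permutation p = 0.333, the smallest possible). Without Cre replicate 2 it was -7.92 percentage points.

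H3K79me1 was more concentrated in the broad domains in both Cre lists than in both control lists. Inside cover was 4.27 and 9.10 times flank cover in Cre replicates 1 and 2, against 2.35 and 2.77 times in control replicates 1 and 2. On the log2 scale the means were 2.64 ± 0.77 and 1.35 ± 0.17 (SD, n = 2), a difference of 1.29 (exact two-sided permutation p = 0.333). Without Cre replicate 2 it was 0.74. For domains of 5 kb or more the log2 difference was 1.49, and for those of 20 kb or more 1.21. It is therefore not shown to be particular to domains of 10 kb or more. Of each list's whole covered length, 44.4% and 57.7% lay in broad domains in the Cre libraries and 28.4% and 34.3% in the controls, with means of 51.0 ± 9.38% and 31.4 ± 4.17% (SD, n = 2). That difference of 19.7 percentage points, examined after the data were seen, gave 0.333 as well by the exact two-sided permutation test. Domains of 2 to 10 kb held 27.8% and 25.9% of the covered length in the Cre libraries and 23.3% and 25.9% in the controls. Benjamini-Hochberg adjustment over the 9 exact tests made on H3K79me1 gave 0.667 for the Cre and control difference in inside cover, 0.375 for the other differences between Cre and control, and 0.281 for each test over the 4 libraries.

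The lists were also compared at an equal number of 10000 peaks each, those of largest −log10 p. At that number 67.0% and 60.8% of the covered length lay in broad domains in Cre replicates 1 and 2, against 53.9% and 42.7% in control replicates 1 and 2. The rich side then held 58.0% and 62.2% (Cre) against 43.6% and 46.5% (control). Inside cover was 12.8 and 9.68 times flank cover (Cre) against 5.16 and 4.08 times (control). Inside cover itself was 10.3% and 1.69% in the Cre libraries and 12.9% and 2.92% in the controls, and the 10000 peaks covered 8.21 and 1.49 Mb (Cre) against 12.9 and 3.67 Mb (control). The part of read depth in these differences was not tested. The 10000 were most of the 12047 H3K79me1 peaks of Cre replicate 2. They were a small part of the 115940 of Cre replicate 1 and of the 160119 and 155558 of control replicates 1 and 2.

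No single domain was called in the unpaired fit. limma with Benjamini-Hochberg adjustment, fitted to H3K79me1 cover in all 12574 merged domains of 2 kb or wider with a mean cover of at least 10%, called 0 of them (0%) and 0 of the 2692 broad ones among them. At an unadjusted p under 0.05 there were 227 and 0. On simulated data with the spread of these libraries the same fit recovered none of the shifted domains, although their shift was larger than the median difference observed here, so the absence of calls says nothing on whether domains changed. With the replicate number as a block, limma called 739 broad domains (27.5%, against 39.1% of all tested). Which count applies is unsettled, as described under the processing alternatives below. Both Cre libraries lay below both controls in 587 broad domains (21.8%), against 37.3% of all domains tested, and above both in 0, against 0.0159%. Since Cre replicate 2 was nearly always lowest, these counts follow Cre replicate 1, which lay below both controls in the same number, 587, and above both in 470 (17.5%, against 12.7% of all domains tested). The median difference over the broad domains was -24.5 percentage points, and -27.5 over all domains tested. With Cre replicate 1 as the only Cre library the medians were -1.43 and -8.97.

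The broad domain with the most H3K79me1 over the 4 libraries lay on chr8:19875367-19892920 (mm9), with 47.6% and 58.6% in the Cre libraries and 76.8% and 65.9% in the controls. Its cover in Cre replicate 2 was the highest of any broad domain in that library. H3K79me2 covered it to 43.0% and 43.2% after Cre and 45.6% and 44.8% in control, nearly the same in all 4 lists. The next were on chr10:80014016-80024175 and chr17:30737013-30749808, where H3K79me1 covered 87.5% and 84.8% in Cre replicate 1 and 91.1% and 91.0% in control replicate 1.

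At the other end were the 3 broad domains of lowest mean H3K79me1 cover over the 4 libraries. The domain on chr2:74517390-74537605 had 5.53% and 0% in the Cre libraries and 4.36% and 0% in the controls, although H3K79me2 covered 46.8% and 46.0% after Cre and 5.19% and 48.0% in control. Its flanks had 0.82% and 0% (Cre) and 11.5% and 0% (control). The domain on chr11:96112267-96124446 had 11.1% and 0% (Cre) and 2.13% and 0% (control), and that on chr15:96873428-96886415 had 1.26% and 0% (Cre) and 12.0% and 0% (control). Cre replicate 2 and control replicate 2 had no H3K79me1 peak in any of these 3.

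The largest H3K79me1 differences among domains with both Cre libraries below both controls were on chr17:17372136-17382912, chr2:119500891-119516716 and chr2:52877653-52888410. H3K79me1 covered the first to 14.4% and 2.90% in the Cre libraries and 74.4% and 57.8% in the controls, a difference of -57.4 percentage points. The others had 22.7% and 2.88% (Cre) against 79.7% and 60.7% (control), and 33.8% and 0% (Cre) against 86.9% and 56.9% (control). H3K79me2 in the first was 10.7% and 19.4% after Cre and 0.47% and 56.1% in control. In the first and second, but not the third, the lower control stood further above Cre replicate 1 than the controls stood apart. No domain met the rule for the opposite order, in which both Cre libraries exceed both controls.

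Among domains with a mean H3K79me2 cover of at least 50%, the 4 lists were most even on chr10:126416035-126432577, chr8:20005778-20020441 and chr17:29167874-29178999. On chromosome 10 it covered 76.9% and 77.3% in the Cre libraries and 63.6% and 78.5% in the controls, the highest cover of any broad domain in control replicate 1. There H3K79me1 was higher in Cre replicate 1 than in the controls, at 66.6% and 2.42% (Cre) and 16.0% and 18.4% (control). The widest range over the lists was on chr15:98674320-98685595, with 82.9% and 38.0% after Cre and 3.67% and 42.2% in control, followed by chr2:35552430-35563347 and chr10:79389822-79404336. In these 3 domains Cre replicate 1 was the highest H3K79me2 list, with 82.9% to 90.2%, and control replicate 1 the lowest, with 3.67% to 15.0%.

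Cover of the broad domains was also compared by chromosome. H3K79me2 was lowest on chromosome 19 and highest on chromosome 11 in each of the 4 lists, from 48.8% to 56.5% and from 43.9% to 50.3% in Cre replicates 1 and 2, and from 15.8% to 18.8% and from 56.3% to 62.2% in control replicates 1 and 2. H3K79me1 was highest on chromosome 8 in Cre replicate 1 (54.3%), Cre replicate 2 (2.44%) and control replicate 1 (67.4%), and on chromosome 7 in control replicate 2 (36.0%). It was lowest on chromosome 18 in Cre replicate 1 (43.6%) and on chromosome 3 in control replicate 1 (58.9%). Chromosome 13 was lowest in Cre replicate 2 (1.67%) and control replicate 2 (31.9%).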

How the data were processed

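H3K79me1 and H3K79me2 ChIP-seq peak lists of 8 libraries were used, and sample titles gave the groups. RNA polymerase II (4 libraries) is not analysed here. Per the labels' protocols, 7.1 µg of chromatin was mixed with 133 ng of human 293T chromatin as a spike-in and precipitated with 5 µg of antibody. Per the submitters' processing notes, MACS2, Bowtie2, SAMtools 1.2, bedtools, HOMER and deepTools were among the tools and hg19 and mm9 among the builds, without roles. By the names of the deposited peaks, each list is a broad call with an input as background, and the p setting was 0.001 (H3K79me1) or 1e-04 (H3K79me2). Each deposited list gives the authors' fold enrichment (a ratio), −log10 p-value, −log10 q-value and score per peak. These are the authors' values, and the lists record no scaling to the spike-in. The listed −log10 p of peaks in broad domains had medians from 1.34 (H3K79me1 Cre replicate 1) to 2.23 (H3K79me2 control replicate 1). These are weaker than the p settings in the names, and the cut of at least 2 used here is on the listed values. Positions are mm9, from base 1. The reference tables are of another build (GRCm38.p6), so no gene was tied to a domain and no sequence is shown.

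The members and measures were chosen with earlier results of these data known. Cover is the percent of bases inside peaks, pooled over domains. Differences between 2 Cre and 2 control libraries were tested by two-sided exact permutation (6 arrangements), and values over 4 libraries by exact sign flips (16 patterns). Cover per domain was tested with limma 3.58.1 (R 4.3.3, mean-variance trend, Benjamini-Hochberg at 0.05, unpaired). On simulated data this fit found shifted domains only when the spread between libraries was made far smaller than it is here. Named domains were the 8 widest and the 3 most extreme in H3K79me1 cover, in H3K79me1 difference, in evenness of H3K79me2 (mean cover of at least 50%) and around the width limit. Alternatives were other merging distances and widths, fewer lists, stricter or equal peak numbers, other flanks, left-out libraries and a replicate block. The limma fit was also run with cover centred on library medians. Python 3.11.15, NumPy 2.4.6, pandas 2.3.3 and Matplotlib 3.10.9 were used.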

Additional observations from a re-analysis of the deposited data

How the results depend on the processing

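Of 180 alternative values of the 9 tested H3K79me1 results, 178 kept their direction, and none passed 0.05 by an exact test, which the design does not allow. The values from pairing by number, counted among these, could not differ from the main ones, since both groups hold the same replicate numbers. The excess of H3K79me1 in broad over 2 to 10 kb domains was -4.67 percentage points with H3K79me2 peaks of −log10 p of at least 2. With each H3K79me1 library left out, inside cover differed by -46.4 to 1.00 percentage points, the log2 ratio of inside to flank by 0.74 to 1.84, and the share on the rich side by 6.27 to 16.6. Over all alternatives the last was 6.27 to 16.6 percentage points, and the share of the list in broad domains 6.32 to 26.3.

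The 2702 broad domains became 1473 when peaks were merged within 500 bp, 5937 at 5 kb or more, 880 at 20 kb or more, 1783 from the Cre lists alone, and 324 with H3K79me2 peaks of −log10 p of at least 2. limma called 0 broad domains changed in the unpaired fit, and 739 with the replicate number as a block, all lower after Cre. Those 739 were 27.5% of the broad domains, against 39.1% of all tested. Fits with a library left out hold a lone library in a group, so their calls are not given. With cover centred on library medians, the unpaired fit called 0 broad domains and 2 (0.0159%) of the 12574 tested, both higher after Cre. No fit combined the block with centring. Deviations of same-numbered libraries correlated over broad domains (r = 0.40), but 2 pairs are too few to show pairing. Peak names end in A for replicate 1 of both groups, and for replicate 2 of both groups in 19 (H3K79me1) or B (H3K79me2). Whether these tags or the numbers mark shared cultures is not stated, so it is unsettled which of the counts, 0 or 739, applies. By arithmetic, pairing by number could not change the 4 Cre and control differences it was run on, so it is no check on them. The exact sign-flip permutation p was 0.5 for each, the smallest for 2 pairs. Without read counts, the depth behind any uncovered base is unknown.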

Other observations

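H3K79me1 control replicate 2 had no peak in 6 broad domains, chosen after their values were seen. They include the 3 with the least H3K79me1 already described, and others on chr2:30709067-30719658, chr15:50708226-50721537 and chr15:102830848-102846602 (mm9). In the first of these H3K79me1 covered 45.7% and 0.62% in Cre replicates 1 and 2 and 56.9% in control replicate 1, so only control replicate 2 lacked it among the longer lists. In the other two it covered 10.0% and 0% (Cre) against 3.97% (control replicate 1), and 23.7% and 0% (Cre) against 3.57% (control replicate 1), while H3K79me2 covered 30.6% and 30.4% (Cre) against 1.94% and 31.2% (control), and 32.0% and 29.0% (Cre) against 12.4% and 56.1% (control).

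Among the broad domains named here, those on chr8:19875367-19892920 and chr8:20005778-20020441 were the only ones with H3K79me1 cover above 10% in Cre replicate 2, at 58.6% and 46.7%. The same library had a median of 1.36% over the 2702 domains. In these 2 domains its flank cover was 19.4% and 14.3%.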
